A study of Mus musculus with 6 samples.

Results

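The surface receptors and adhesion molecules by which satellite cells, the resident stem cells of skeletal muscle, are recognised and held in their niche were followed in cultured muscle-derived stem cells (MDSC) and in embryonic stem cells (ESC). The set had 10 genes, Cdh15, Vcam1, Ncam1, Cd34, Sdc3, Sdc4, Cxcr4, Met, Calcr and Megf10. They were chosen by gene symbol, with earlier results of these data known. Each was read through every array probe whose RefSeq accession maps to its symbol. That gave 14 of 55681 probes and 10 of 37153 genes and unnamed features. All 10 passed the filter on dim signals, which 25057 features passed. Of the 10 genes, 7 had 1 probe, 2 had 2 probes and 1 had 3.

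The study compared 3 groups, with 2 one-colour arrays each. Mstn-null MDSC and wild-type (WT) MDSC were the slowest adhering cells of successive platings of hindlimb muscle from male mice aged 5 weeks. The MDSC were untreated, at passage 1, from 2 isolations per genotype, and had grown for a fortnight in medium with serum and chick embryo extract. Mstn encodes myostatin, a secreted inhibitor of muscle growth. The null allele, the mouse strain and the number of animals per isolation are not given in the sources used here. The W4 ESC were untreated cells of 1 established mouse line, at passages 12 and 15, so their 2 arrays are passages and not separate lines. The labels call their colonies feeder free, whereas the growth protocol describes fibroblast feeders that were removed by a short plating step.

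A satellite cell lies between the muscle fibre and its basal lamina. M-cadherin and other adhesion molecules join it to the fibre, syndecans and integrins bind matrix and growth factors, and receptors such as Met, Cxcr4 and Calcr receive signals that hold the cell quiescent, activate it or direct its migration. Several of these proteins are used to sort satellite cells from mouse muscle, although Vcam1, Cd34, Ncam1 and Cxcr4 are also found on stromal, endothelial, neural or blood cells.

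Levels are log2 signals relative to the 75th percentile of each array, so a level of 0 is the signal of a bright probe of that array, and levels are compared between arrays and never between probes. A probe counted as well above background by the scanner software's own call. On the 6 arrays, 53.3% to 64.6% of spots were well above background and none was saturated. Both WT arrays lay on one slide and the other 4 arrays on a second slide, so slide and WT genotype cannot be told apart, and Mstn-null MDSC versus W4 ESC is the comparison within a slide. The probe of Mstn itself had log2 levels of -3.06 and -2.47 in Mstn-null MDSC, where it was well above background, against -4.90 and -6.71 in WT MDSC, where it was not. The place of that probe relative to the deleted part is not given in the sources used here, so it checks nothing, and the genotypes are called by their labels, on which every direction between them rests. In the W4 ESC arrays Mstn was not well above background.

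The labelled cell types were set against markers. All 9 markers of pluripotent cells were lower in MDSC than in W4 ESC, with mean log2 levels of -4.19 and -4.09 in Mstn-null MDSC and -3.81 and -3.83 in WT MDSC, against 5.83 and 5.99 in W4 ESC. Of the satellite cell transcription factors, Myf5 was well above background on none of the 6 arrays and Pax7 on 1 WT and 1 ESC array. Pax3 passed that call on each of the 6 arrays, with a log2 difference of MDSC from W4 ESC of 0.39 (limma, adjusted p = 0.661). Myod1 passed it on every MDSC array but on neither ESC array. It was at least 6.33-fold higher in MDSC (limma, adjusted p = 0.0127), although Mstn-null MDSC alone did not pass (adjusted p = 0.106). The list of 12 satellite cell and myoblast markers had mean log2 levels of -1.33 and -1.78 in Mstn-null MDSC and 1.21 and -0.80 in WT MDSC, against -3.33 and -3.30 in W4 ESC. The first WT isolation stood above every other array on that list, with Myog, a regulator of myoblast differentiation, at a log2 level of 2.58 there against 0.58 in the second WT isolation. In such bulk cultures, fewer cells of a type and less RNA per cell cannot be told apart.

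RefSeq promoter windows of assembly GRCm38.p6 were found for 7 of the 10 genes. Each covers 300 bases, most of them before the start. Shown are 5 windows, of the gene lower in MDSC (Calcr, the one of its 2 windows with more CpG), of Cxcr4, of the cadherin gene Cdh15, whose levels varied most between WT isolations, and of Cd34 and Sdc3, both higher in MDSC. Each is written 5′ to 3′ along the gene's strand, and capitals mark any match, on either strand, to the Sp1-type box GGGCGG, the TATA box TATAAA or the E-boxes CAGCTG and CACCTG that are typical of muscle gene regulation.
Calcr, chr6:3763574-3763873, minus strand: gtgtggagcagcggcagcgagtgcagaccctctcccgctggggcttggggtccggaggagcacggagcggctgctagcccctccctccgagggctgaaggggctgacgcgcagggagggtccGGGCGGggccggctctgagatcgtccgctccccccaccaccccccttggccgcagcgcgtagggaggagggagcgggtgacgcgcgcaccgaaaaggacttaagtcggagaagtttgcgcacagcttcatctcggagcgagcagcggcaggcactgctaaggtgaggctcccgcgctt
Cxcr4, chr1:128592250-128592549, minus strand: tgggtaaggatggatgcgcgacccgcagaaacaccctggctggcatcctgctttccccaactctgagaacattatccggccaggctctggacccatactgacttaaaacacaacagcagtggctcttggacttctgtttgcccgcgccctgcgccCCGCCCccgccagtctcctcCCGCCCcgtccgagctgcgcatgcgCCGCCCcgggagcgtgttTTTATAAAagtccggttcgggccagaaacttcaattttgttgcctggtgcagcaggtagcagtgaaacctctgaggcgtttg
Cdh15, chr8:122848124-122848423, plus strand: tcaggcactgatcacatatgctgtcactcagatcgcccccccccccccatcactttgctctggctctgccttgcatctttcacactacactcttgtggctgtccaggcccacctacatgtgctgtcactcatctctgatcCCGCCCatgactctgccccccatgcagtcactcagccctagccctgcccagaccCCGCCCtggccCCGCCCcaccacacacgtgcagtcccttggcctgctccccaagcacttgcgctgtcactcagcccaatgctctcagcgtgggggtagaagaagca
Cd34, chr1:194938571-194938870, plus strand: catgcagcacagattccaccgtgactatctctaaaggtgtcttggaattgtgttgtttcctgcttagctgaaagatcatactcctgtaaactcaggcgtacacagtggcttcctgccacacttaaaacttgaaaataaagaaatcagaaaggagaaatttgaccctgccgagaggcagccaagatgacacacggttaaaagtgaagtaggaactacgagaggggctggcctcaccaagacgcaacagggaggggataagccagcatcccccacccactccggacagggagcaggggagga
Sdc3, chr4:130792287-130792586, plus strand: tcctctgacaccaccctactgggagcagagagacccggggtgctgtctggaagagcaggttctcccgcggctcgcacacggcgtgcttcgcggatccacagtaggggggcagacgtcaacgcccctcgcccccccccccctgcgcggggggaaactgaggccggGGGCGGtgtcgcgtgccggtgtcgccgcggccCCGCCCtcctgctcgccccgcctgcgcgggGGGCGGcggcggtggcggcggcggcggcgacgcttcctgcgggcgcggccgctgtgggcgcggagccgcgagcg

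The windows differed mainly in CpG content. Calcr had 29 CpG, Cxcr4 20 and Sdc3 44, against 7 each in Cdh15 and Cd34, which is also the median of all windows. GGGCGG occurred 3 times in Cdh15, Sdc3 and Cxcr4, once in Calcr and in no place in Cd34, while 35.7% of the 32851 windows of the same length held it. Cxcr4 had TATAAA on both strands, in 2 matches that overlap each other, and 13.6% of all windows held that box. CAGCTG, found in 16.3% of all windows, occurred in none of the 8 windows of the 7 genes. CACCTG, found in 20.2%, occurred in the other Calcr window and in that of Met. No motif overlapped another motif. A match describes these letters and is not a binding site.

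Most of the receptors were higher in MDSC than in W4 ESC. Over both genotypes, 6 of the 10 genes rose and 1 fell, against 28.3% of all tested features that rose and 31.4% that fell. The risers were Vcam1, Megf10, Cd34, Sdc3, Ncam1 and Met, and Calcr fell. The median log2 difference of the 10 genes was 1.64, beside -0.03 over all tested features. In Mstn-null MDSC alone against W4 ESC, 6 genes rose and 1 fell, with 23.3% and 30.8% of all features. Over all features that comparison gave 5849 higher and 7725 lower, and 6253 higher and 5473 lower when arrays were centred on their median. In WT MDSC alone against W4 ESC, 5 genes rose and 1 fell, with 27.1% and 25.9% of all features. Both genotypes were set against the same W4 ESC arrays, so these counts share their controls. Without the second W4 ESC array, 4 of the genes rose in MDSC, and without the second WT array 7 did. In Mstn-null MDSC alone the count of genes that rose fell to 3 without either Mstn-null array or without the second ESC array, and to 4 without the first ESC array. Between the genotypes, limma called none of the 10 genes and 0% of all features, while 3671 of 25057 features had an unadjusted p under 0.05.

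**Figure D1:**
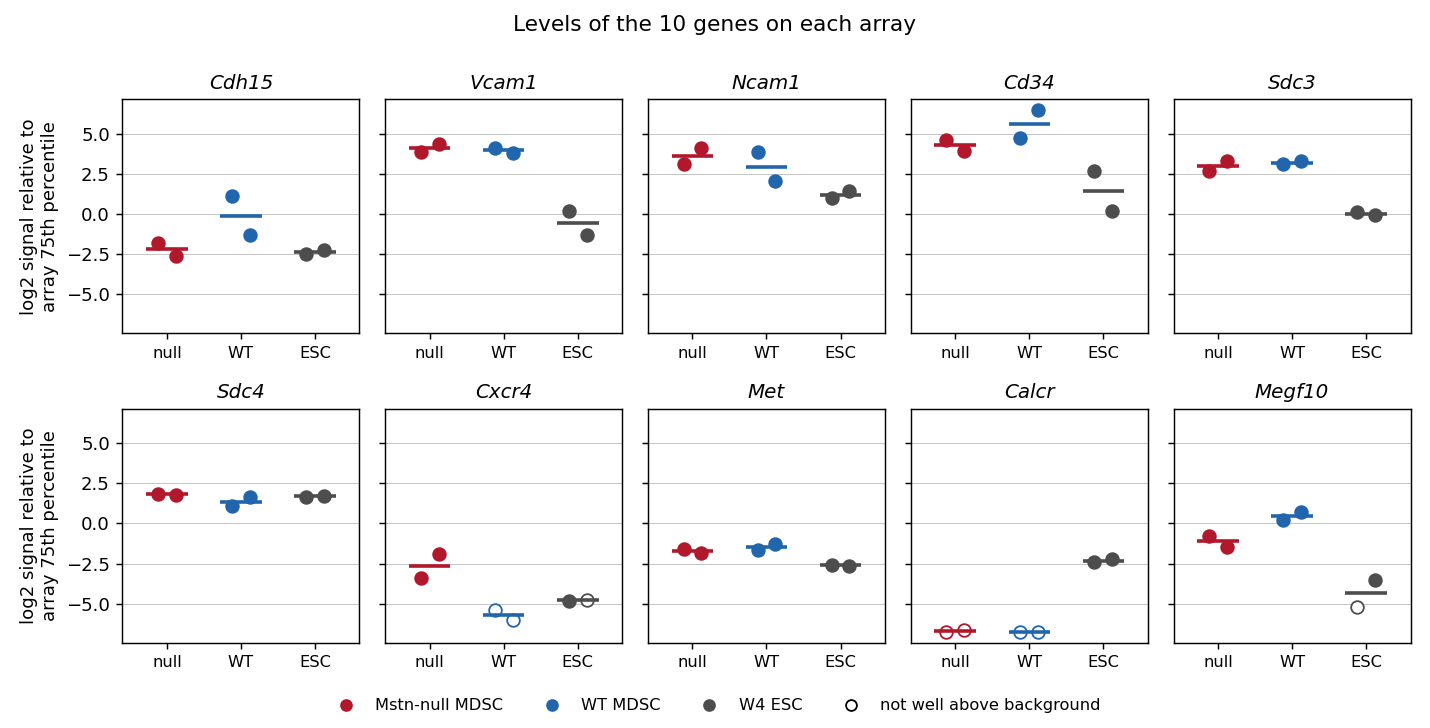
Log2 level (signal relative to the array's 75th percentile) of each gene on each array, by its brightest probe. In each panel Mstn-null MDSC, WT MDSC and W4 ESC run from left to right with replicate 1 left of replicate 2, bars are group means, and open circles were not well above background. Vcam1 and Sdc3 show 4 MDSC arrays far above both ESC arrays, and Calcr shows the opposite order, with its MDSC values at the floor of the arrays.

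**Figure D2:**
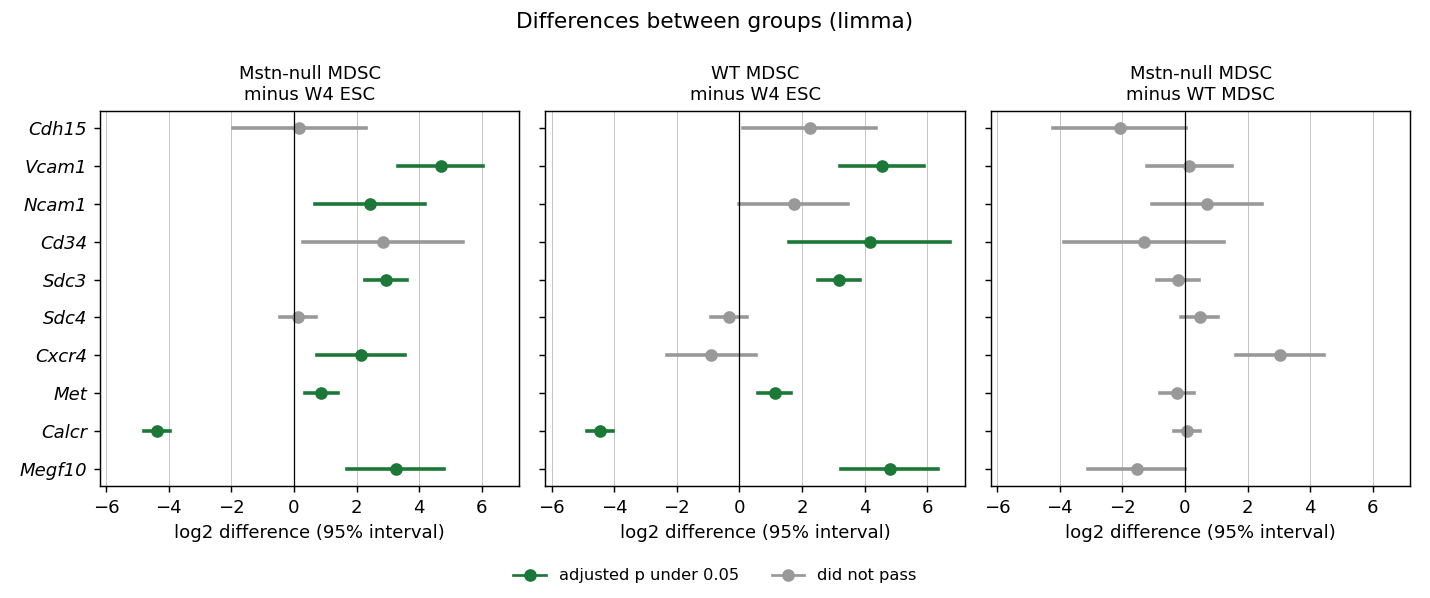
Log2 differences between groups with 95% intervals from limma, for Mstn-null MDSC minus W4 ESC, WT MDSC minus W4 ESC and Mstn-null MDSC minus WT MDSC. Green marks an adjusted p under 0.05. No gene passed in the right panel, where Cxcr4, at 3.03, lies farthest from 0.

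Vcam1 was high on all 4 MDSC arrays and dimmer on both ESC arrays. Vcam1 is an immunoglobulin-type adhesion molecule that binds integrins carrying the Itga4 chain, and it is used to sort satellite cells from mouse muscle. It had log2 levels of 3.85 and 4.39 in Mstn-null MDSC and 4.14 and 3.82 in WT MDSC, against 0.17 and -1.31 in W4 ESC. The genotypes overlapped, and every MDSC array lay above both ESC arrays. The log2 difference of MDSC from W4 ESC was 4.62 ± 0.46 (SE; n = 4 and 2; adjusted p = 0.00136), or 24.6-fold. Its dimmer second probe gave a log2 difference of 4.59, with log2 levels of -0.03 and 0.90 in Mstn-null MDSC and 0.28 and -0.41 in WT MDSC, against -3.98 and -4.83 in W4 ESC. The last of these was not well above background. The earlier ESC passage was the higher one with both probes. Between Mstn-null and WT MDSC the log2 difference was 0.14, with a 95% interval of -1.21 to 1.50.

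Cdh15, M-cadherin, is the calcium-dependent adhesion molecule that joins satellite cells and myoblasts to each other and to fibres. The log2 level of Cdh15 was -1.78 and -2.59 in Mstn-null MDSC and 1.11 and -1.33 in WT MDSC, against -2.49 and -2.21 in W4 ESC, all well above background. Both WT arrays and the first Mstn-null array stood above both ESC arrays, the second Mstn-null array lay just below them, and the first WT isolation was far above the rest. Neither the log2 difference of MDSC from W4 ESC (1.20 ± 0.72, adjusted p = 0.200) nor that of WT MDSC from W4 ESC (2.24 ± 0.83, adjusted p = 0.0719) passed. Without the second WT isolation both passed, with log2 differences of 1.81 (adjusted p = 0.0132) and 3.46 (adjusted p = 0.00881). Mstn-null MDSC lay below WT MDSC on both arrays, by a log2 difference of -2.08 ± 0.83 (adjusted p = 0.350). The 2 WT isolations differed by 2.44 on the log2 scale, a gap wider than that of 98.4% of all tested features. The mean level of the satellite cell and myoblast markers, given above, was also highest in the first WT isolation. The part of these markers in the Cdh15 values was not tested.

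Ncam1, a homophilic neural and muscle adhesion molecule that carries polysialic acid, had log2 levels of 3.13 and 4.14 in Mstn-null MDSC and 3.84 and 2.04 in WT MDSC, against 1.00 and 1.42 in W4 ESC. All MDSC arrays lay above both ESC arrays, and the genotypes overlapped. The log2 difference of MDSC from W4 ESC was 2.07 ± 0.59 (SE, adjusted p = 0.0317). That call was lost when the second Mstn-null array (adjusted p = 0.0755) or either ESC array was left out (0.146 without the first, 0.0983 without the second). In Mstn-null MDSC alone the log2 difference was 2.42 (adjusted p = 0.0334) and was no longer called without any one of the 4 arrays it compares (adjusted p of 0.0563 to 0.144). The other 2 probes, which are assigned to another transcript record, gave larger log2 differences of 2.72 and 3.68 with adjusted p of 0.0144 and 0.00658. The probe with the larger one had log2 levels of -1.13 and -0.97 in Mstn-null MDSC and 0.55 and -1.67 in WT MDSC, against -4.74 and -4.24 in W4 ESC. With these 2 probes WT MDSC also passed against W4 ESC (adjusted p = 0.0315 and 0.0101), which the brightest probe did not (log2 difference 1.73, adjusted p = 0.0853). Between the genotypes the probes differed in sign, with log2 differences of 0.70, 0.37 and -0.50, and none passed.

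Partners of these adhesion molecules moved in both directions. Of 13 integrin, catenin and cadherin partners, 5 rose and 2 fell in MDSC, with a median log2 difference of 0.68. For this list and those that follow, 28.3% of all tested features rose, 31.4% fell and the median was -0.03. Itga4, the integrin chain that binds Vcam1, rose by a log2 difference of 3.47 ± 0.74 (adjusted p = 0.0131, 1 ESC array not well above background). It passed in Mstn-null MDSC alone (4.56, limma, adjusted p = 0.0100) and did not pass in WT MDSC alone (2.38, adjusted p = 0.0675). Itgb1, its partner chain, rose by 1.76 ± 0.39 (adjusted p = 0.0147). Cdh11, a mesenchymal cadherin, rose by a log2 difference of 3.82. Itga9, another integrin chain, had the smallest adjusted p of the list between genotypes, with a log2 difference of 2.09 in Mstn-null minus WT MDSC (adjusted p = 0.0944). Of 6 tested partners of Ncam1, 3 rose and 1 fell, with a median log2 difference of 1.04. Gfra1, a co-receptor of glial cell line-derived factors, rose by a log2 difference of 3.00, and Gap43, a growth cone protein, fell by 4.42. Gfra1 was well above background on 1 of the 2 ESC arrays.

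The polysialyltransferases, which add polysialic acid to Ncam1, were less clear. St8sia2 had a log2 difference of MDSC from W4 ESC of 0.87 (adjusted p = 0.118). St8sia4 had log2 levels of -1.25 and -0.11 in Mstn-null MDSC and -3.82 and -4.36 in WT MDSC, against -3.51 and -3.36 in W4 ESC. Both Mstn-null arrays lay above the other 4, of which the second WT array was not well above background. The log2 difference passed in Mstn-null MDSC against W4 ESC (2.75, adjusted p = 0.00578) and did not pass between the genotypes (3.41, adjusted p = 0.0721).

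Cd34, a sialomucin found on quiescent mouse satellite cells and also on fibro-adipogenic and endothelial cells, had log2 levels of 4.63 and 3.95 in Mstn-null MDSC and 4.73 and 6.47 in WT MDSC, against 2.70 and 0.20 in W4 ESC. The second WT isolation was the highest array and the later ESC passage the lowest. The MDSC arrays all lay above the ESC arrays, and the log2 difference was 3.50 ± 0.86 (SE; adjusted p = 0.0205). In WT MDSC alone it was 4.15 (adjusted p = 0.0215), and in Mstn-null MDSC, on the same slide as W4 ESC, it was 2.84 and did not pass (adjusted p = 0.0622). The call over both genotypes was lost without the first Mstn-null array (adjusted p = 0.0546) and without the second ESC array (log2 difference 2.25, adjusted p = 0.0832). The call in WT MDSC alone was lost without the second WT array (adjusted p = 0.0830) or the second ESC array (0.0623), and Mstn-null MDSC passed without the first ESC array (log2 difference 4.09, adjusted p = 0.0289) or with median centring (3.06, adjusted p = 0.0254). Both Mstn-null arrays lay below both WT arrays, by a log2 difference of -1.31 ± 1.00 (adjusted p = 0.615). The second probe gave log2 differences of 3.04 from W4 ESC and -1.21 between the genotypes.

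The gap between ESC passages for Cd34, 2.50 on the log2 scale, exceeded that of 98.4% of all tested features. The mean of fibroblast markers was also higher at the earlier passage. The mean log2 level of 9 fibro-adipogenic and fibroblast markers was 3.65 and 3.63 in Mstn-null MDSC and 3.20 and 2.48 in WT MDSC, against 0.38 and -2.58 in W4 ESC. Dcn, a matrix proteoglycan of fibroblasts, had log2 levels of 2.96 at the earlier ESC passage and -2.05 at the later one. Col1a1, a collagen chain of the same list, differed far less, at 3.99 and 3.69. Among the MDSC arrays, the second WT isolation had the lowest mean of these markers and the highest Cd34 level. The part of these markers in the Cd34 and Vcam1 values of the earlier ESC passage was not tested. Of 6 tested sialomucin and selectin genes, 3 rose and 3 fell in MDSC (median log2 difference 0.21). Podxl, a sialomucin related to Cd34, was well above background only in W4 ESC, with a level at least 8.78-fold lower in MDSC (adjusted p = 3.00e-04). Selp, a selectin, rose by a log2 difference of 2.26.

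**Figure D3:**
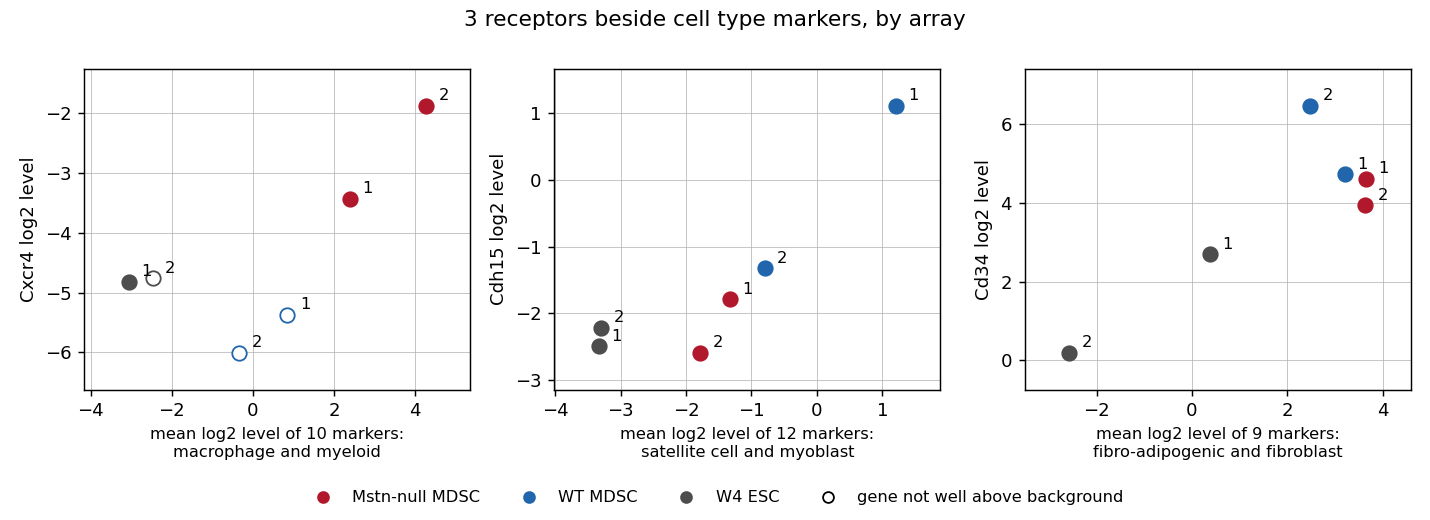
Log2 level of Cxcr4, Cdh15 and Cd34 on each array (vertical axes) beside the mean log2 level of the macrophage, satellite cell and myoblast, and fibroblast marker lists (horizontal axes). Points are labelled by replicate number, and open circles mark arrays on which the receptor was not well above background. Cxcr4 is highest in the second Mstn-null array, at -1.88, Cdh15 in the first WT array, at 1.11, and the 2 ESC passages lie apart for Cd34, at 2.70 and 0.20.

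The syndecans, membrane proteins whose heparan sulfate chains bind growth factors and matrix, parted in behaviour. Sdc3 had log2 levels of 2.67 and 3.30 in Mstn-null MDSC and 3.11 and 3.31 in WT MDSC, against 0.14 and -0.07 in W4 ESC. The genotypes overlapped and all 4 MDSC arrays stood well above both ESC arrays. The log2 difference was 3.06 ± 0.23 (SE; adjusted p = 6.83e-04), or 8.34-fold, and it passed in each genotype, at 2.95 in Mstn-null MDSC and 3.17 in WT MDSC. For Sdc3 the log2 difference between the genotypes was -0.22, with a 95% interval of -0.90 to 0.45.

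Sdc4 was bright in all 3 groups. Its log2 level was 1.85 and 1.78 in Mstn-null MDSC and 1.08 and 1.62 in WT MDSC, against 1.63 and 1.73 in W4 ESC. The Mstn-null arrays lay just above and the WT arrays just below the ESC arrays. The log2 difference of MDSC from W4 ESC was -0.10 ± 0.20, with a 95% interval of -0.60 to 0.41 (adjusted p = 0.681), and its sign depended on how arrays were centred (0.044 with median centring). Mstn-null minus WT MDSC was 0.47 ± 0.23 on the log2 scale (adjusted p = 0.446).

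Heparan sulfate genes were mostly higher in MDSC. Of 25 other core proteins and enzymes that make or trim heparan sulfate, 18 rose and 2 fell, with a median log2 difference of 1.56. The other syndecans rose, Sdc1 by a log2 difference of 1.88 ± 0.20 (adjusted p = 0.00164) and Sdc2 by 2.98 ± 0.18 (adjusted p = 4.27e-04). Gpc6, a glypican, rose by a log2 difference of 4.40, while Gpc3, a fetal glypican, fell by 6.26. Gpc3 was well above background on 2 of the 4 MDSC arrays, and Gpc6 on 1 of the 2 ESC arrays. Of 7 tested growth factor and matrix partners of Sdc3 and Sdc4, 6 rose and none fell, with a median log2 difference of 2.48. Fgf2, a mitogen of satellite cells, rose by a log2 difference of 3.77, and Prkca, a kinase that Sdc4 recruits, by 3.03. Fgf2 was well above background on 1 of the 2 ESC arrays.

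Cxcr4, the chemokine receptor that guides migrating muscle progenitors and holds blood stem cells in their niche, was well above background on both Mstn-null arrays and on 1 ESC array. Its log2 level was -3.43 and -1.88 in Mstn-null MDSC and -5.37 and -6.00 in WT MDSC, against -4.82 and -4.76 in W4 ESC. The Mstn-null arrays stood above all others, and the WT arrays were the lowest. The log2 difference of Mstn-null MDSC from W4 ESC was 2.14 ± 0.55 (adjusted p = 0.0257), and that of WT MDSC was -0.90 ± 0.55 (adjusted p = 0.217). With normexp background correction the difference in Mstn-null MDSC was 0.96 and did not pass (adjusted p = 0.0527), nor did it without the second Mstn-null array or without either ESC array (adjusted p of 0.0529, 0.0947 and 0.0903). Mstn-null over WT MDSC was at least 4.53-fold higher, with a fitted log2 difference of 3.03 ± 0.55 that did not pass (adjusted p = 0.112, unadjusted p = 0.00265). With normexp background correction that log2 difference was 1.01 (adjusted p = 0.249), so the bound holds for the scanner-processed signal alone. Pooled over genotypes the log2 difference from W4 ESC was 0.62 (adjusted p = 0.304), and without the first Mstn-null array it passed at 1.01 (adjusted p = 0.0417).

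Blood cell markers were set beside Cxcr4 because blood cells carry it. The mean log2 level of 10 macrophage and myeloid markers was 2.39 and 4.26 in Mstn-null MDSC and 0.85 and -0.35 in WT MDSC, against -3.06 and -2.48 in W4 ESC, which is the order of the MDSC arrays for Cxcr4. All 10 were well above background on each MDSC array, and 6 and 9 of the 10 were on the W4 ESC arrays. Ptprc, the pan-leukocyte surface protein, had log2 levels of -1.39 and 0.32 in Mstn-null MDSC and -3.56 and -4.45 in WT MDSC, against -5.34 and -5.03 in W4 ESC. Of these 10 markers 9 rose in MDSC against W4 ESC, and none passed between the genotypes. Their part in the Cxcr4 values was not tested.

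The ligand side of this axis was higher in both genotypes. Cxcl12, the ligand of Cxcr4, had log2 levels of 6.29 and 5.59 in Mstn-null MDSC and 5.24 and 4.62 in WT MDSC, against 0.50 and -0.31 in W4 ESC. Its log2 difference of MDSC from W4 ESC was 5.34 ± 0.36 (adjusted p = 5.55e-04). Ackr3, a second receptor that takes up Cxcl12, rose by a log2 difference of 4.71 ± 0.33 (adjusted p = 5.76e-04). Of the 5 genes of the list, 3 rose and 1 fell, with a median log2 difference of 1.13, and none passed between the genotypes.

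Met, the receptor tyrosine kinase that takes the activating signal of hepatocyte growth factor, showed the smallest difference among the receptors that rose. Its log2 level was -1.59 and -1.84 in Mstn-null MDSC and -1.67 and -1.28 in WT MDSC, against -2.57 and -2.62 in W4 ESC. The genotypes overlapped and all MDSC arrays lay above the ESC arrays. The probe was printed 10 times on each array, and its spots had an SD of 0.0718 to 0.184 on the log2 scale within an array. The log2 difference of MDSC from W4 ESC was 1.00 ± 0.18 (SE; adjusted p = 0.00781), or 2.00-fold, and it passed in each genotype, at 0.88 in Mstn-null MDSC (adjusted p = 0.0204) and 1.12 in WT MDSC (adjusted p = 0.0102). The Mstn-null call was lost with any array of that comparison left out (adjusted p of 0.0602 to 0.108). Mstn-null minus WT MDSC was -0.25 on the log2 scale, with a 95% interval of -0.78 to 0.29.

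Hgf, the ligand of Met, was far higher in MDSC. In log2 terms its level was 0.94 and 1.13 in Mstn-null MDSC and 1.20 and 1.77 in WT MDSC, against -4.26 and -7.08 in W4 ESC, the last of which was not well above background. The log2 difference was 6.93 ± 0.80 (adjusted p = 0.00210). Spint1, an inhibitor of the proteases that activate the ligand, fell by 6.26 on the log2 scale (adjusted p = 1.49e-04), and neither WT array read it well above background. Of the 13 genes of the HGF axis 4 rose and 5 fell in MDSC, with a median log2 difference of -0.19, and none passed between the genotypes.

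Calcr was the one receptor with its signal in W4 ESC. It encodes the calcitonin receptor, a G protein-coupled receptor of quiescent mouse satellite cells. Its log2 level was -6.73 and -6.65 in Mstn-null MDSC and -6.74 and -6.76 in WT MDSC, against -2.41 and -2.21 in W4 ESC. Both ESC arrays read it well above background and no MDSC array did, and there its signal of 5.35 to 5.63 intensity units had a scanner error of about its own size (100%). In W4 ESC the signal was 119.6 and 139.3 units with an error of 10.50% and 10.68%. The level in MDSC was therefore at least 5.91-fold lower than in W4 ESC (fitted log2 difference -4.41 ± 0.14, adjusted p = 9.76e-05). The bound was 6.08-fold in Mstn-null MDSC and 5.75-fold in WT MDSC, and the genotypes could not be compared below background. With normexp background correction the fitted log2 difference of MDSC from W4 ESC was -1.33 and still passed (adjusted p = 8.08e-04). That is a smaller difference than the bounds, which hold for the scanner-processed signal alone.

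Of 9 tested ligands and partners of Calcr, 6 rose and 2 fell in MDSC, with a median log2 difference of 1.31. Calca, the gene of calcitonin and its related peptide, fell by 7.48 on the log2 scale (adjusted p = 0.00163), although only 1 of the 4 MDSC arrays, the first WT array, read it well above background. In Mstn-null MDSC the mean of Calca was at least 117.7-fold lower than in W4 ESC, without allowance for spread (fitted log2 difference -7.54 ± 0.91). Col5a2, a chain of collagen V, which acts on Calcr in mouse satellite cells, rose by a log2 difference of 5.24 (adjusted p = 3.71e-04). Among the accessory proteins that shape ligand choice, Ramp1 rose by 1.31 on the log2 scale (adjusted p = 0.00450) and Ramp3 fell by 1.61 (adjusted p = 0.0287). Ramp2 did not pass (-1.70, adjusted p = 0.0997). Against W4 ESC, Ramp1 did not pass in Mstn-null MDSC alone (0.41, limma, adjusted p = 0.189), nor Ramp3 in WT MDSC alone (-0.59, adjusted p = 0.363). Ramp1 had log2 levels of -1.40 and -1.60 in Mstn-null MDSC and 0.56 and 0.06 in WT MDSC, against -1.84 and -1.97 in W4 ESC. The Mstn-null arrays lay below both WT arrays, by a log2 difference of -1.81 ± 0.23 that did not pass (adjusted p = 0.0728). Calcrl, the related receptor, was well above background on no array and was not tested.

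Megf10, an engulfment receptor with EGF-like repeats that regulates satellite cell proliferation in mouse, had log2 levels of -0.76 and -1.45 in Mstn-null MDSC and 0.19 and 0.69 in WT MDSC, against -5.18 and -3.53 in W4 ESC. The first ESC value was not well above background. Both genotypes stood above the ESC arrays, and the WT arrays above the Mstn-null arrays. The log2 difference of MDSC from W4 ESC was 4.02 ± 0.53 (SE; adjusted p = 0.00294), or 16.2-fold, and 2.50 with normexp background correction (adjusted p = 0.00134). It was 3.25 ± 0.61 in Mstn-null MDSC (adjusted p = 0.00985) and 4.79 ± 0.61 in WT MDSC (adjusted p = 0.00358). Mstn-null minus WT MDSC was -1.54 ± 0.61 on the log2 scale and did not pass (adjusted p = 0.345). Without the first Mstn-null array the call against W4 ESC in that genotype was lost (adjusted p = 0.0502).

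Of 14 engulfment and Notch genes beside Megf10, 4 rose and 3 fell in MDSC, with a median log2 difference of 0.12. These shares are near or below the 28.3% and 31.4% of all tested features. Megf11, its closest relative in the list, had a log2 difference of 0.30 (adjusted p = 0.176) and Notch1, a receptor that Megf10 is known to act with, one of -0.86 (adjusted p = 0.133). Gulp1, an engulfment adaptor, rose by 2.41 on the log2 scale. Dll1, a Notch ligand, fell by 4.75 on the log2 scale, with 1 of the 4 MDSC arrays well above background. Its mean in Mstn-null MDSC was at least 20.4-fold lower than in W4 ESC, without allowance for spread (fitted log2 difference -5.20 ± 0.81).

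**Figure D4:**
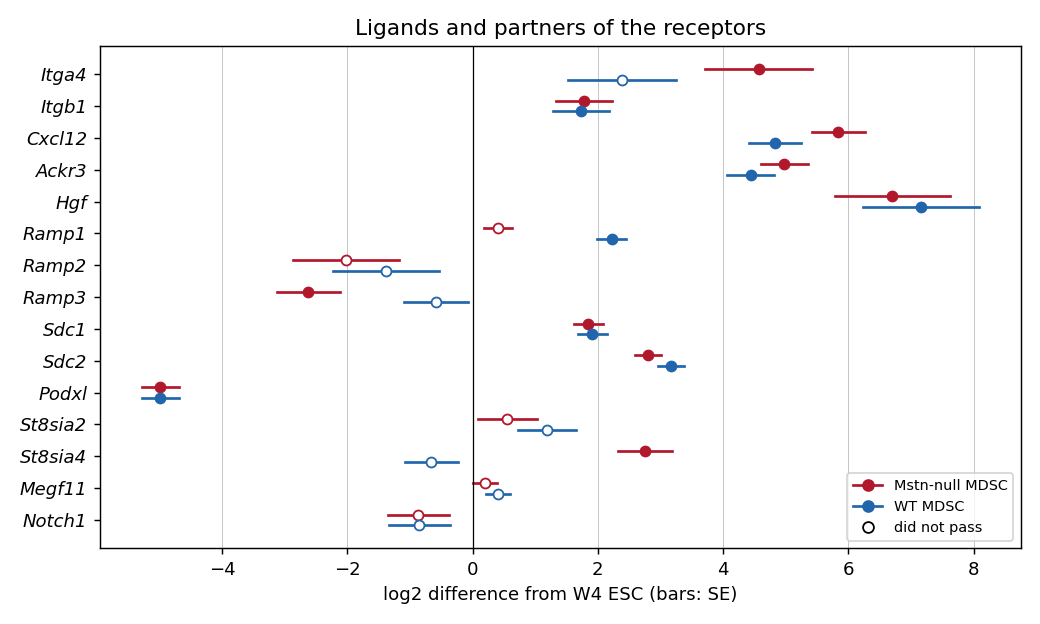
Log2 difference from W4 ESC of ligands and partners of the receptors in Mstn-null MDSC (red) and WT MDSC (blue), with bars of 1 SE and open circles where the adjusted p did not pass. Podxl was not well above background in MDSC, so its value is not a measured fold. Of the 15 genes shown, Hgf, Cxcl12 and Ackr3 lie farthest to the right in both genotypes, and Ramp1 and St8sia4 are among those with clear gaps between the 2 colours, at log2 differences of 0.41 and 2.75 in Mstn-null MDSC and 2.22 and -0.66 in WT MDSC.

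No receptor passed the test between Mstn-null and WT MDSC. On 6 of the 10 genes the arrays of the genotypes did not overlap, as on 51.4% of all tested features. Cdh15, Cd34 and Megf10 were lower on both Mstn-null arrays, Cxcr4 and Sdc4 were higher, and Calcr was below background throughout. The median log2 difference was -0.08, beside -0.12 over all tested features. None of the 9 lists of ligands and partners held a gene that passed between the genotypes. An exact permutation test of 2 arrays against 2 cannot go below a two-sided p of 0.333, and of 4 against 2 not below 0.133.

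The spread inside groups was large for several receptors. The median gap between the 2 arrays of a group over all tested features was 0.20 in Mstn-null MDSC, 0.27 in WT MDSC and 0.29 in W4 ESC on the log2 scale. Beside it, the WT isolations differed by 2.44 for Cdh15, 1.80 for Ncam1 and 1.74 for Cd34, with Cdh15 and Ncam1 higher in the first isolation and Cd34 in the second. The Mstn-null isolations differed by 1.55 for Cxcr4 and 1.01 for Ncam1, both higher in the second. The ESC passages differed by 2.50 for Cd34 and 1.47 for Vcam1, both higher at the earlier passage, and by 1.66 for Megf10, higher at the later one. Sdc3 stayed within 0.63 in each group and Met within 0.39.

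Markers of several other cell types were measured beside the receptors. In MDSC against W4 ESC, 7 of 10 tested satellite cell and myoblast markers, 7 of 8 fibro-adipogenic and fibroblast markers, 5 of 7 pericyte markers, 3 of 7 Schwann markers and 2 of 4 lymphocyte markers rose, and 1 pericyte marker fell. Of 8 tested endothelial markers 1 rose and 5 fell, and the mean log2 level of that list was -2.23 and -2.70 in Mstn-null MDSC and -2.38 and -3.16 in WT MDSC, against -1.81 and -1.93 in W4 ESC. Lymphocyte markers had mean log2 levels of -3.09 and -3.13 in Mstn-null MDSC and -3.22 and -3.24 in WT MDSC. In W4 ESC they were -3.58 and -3.44. Cd3g and Ms4a1 were well above background on no array, and Cd3e and Cd4 on all 6. The lymphocyte markers that rose were Cd4 and Cd8a, by log2 differences of 0.69 and 0.85. No gene of these lists passed between the genotypes. Which of these cells carried the receptors was not tested.

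Genes with the most similar pattern were sought among the 14087 named genes that were well above background on at least 4 arrays, by Pearson's r over the 6 arrays. The 3 nearest to Cdh15 were Rbm24 (r = 0.992), F830016B08Rik and Xirp1 (0.982). Rbm24 is an RNA-binding protein and Xirp1 an actin-binding protein of striated muscle. Nearest to Vcam1 were B2m, the light chain of MHC class I, Pkd1 and Dnajb4 (r of 0.999 or more), and to Sdc3 Tspo, a mitochondrial membrane protein, Esrra and Fam168b (0.99891 to 0.99909). Cd34 was followed most closely by AW551984, Rab27b and Slc25a37 (r from 0.995 to 0.996), Ncam1 by Ebf4, Zdhhc14 and Tap1 (0.994 to 0.997), and Met by Carns1, Slc6a17 and Inka1 (0.996 to 0.998). For Sdc4 the nearest were Fga, Crnn and Olfr1380 (0.967 to 0.972). With 6 arrays in 3 groups and so many candidates these values only describe the pattern, and the arrays share the gap between MDSC and W4 ESC.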

How the data were processed

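The 6 arrays each carried Cy3-labelled RNA of 1 culture, per the labels' protocols. The authors deposited scanner output with an intensity for each spot. The submitters' processing notes name Agilent Feature Extraction 9.1, while the file headers give version 10.7.1.1. Background had been subtracted within each array but arrays had not been scaled to each other, per the file headers.

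From the deposited intensity, log2 was taken and the 75th percentile of all non-control spots of that array (550 to 647 units before the log) was subtracted. Spots flagged as outliers, 100 to 122 an array, were removed before repeat spots of a probe were averaged, and 23 probes that lacked a value on some array were dropped. Through a RefSeq table of assembly GRCm38.p6, 26413 probes matched 1 symbol and 29268 none. A gene stood for its probe of the highest mean over 6 arrays, and was tested if some group had it well above background on each of its arrays (25057 of 37153, 15477 of them named).

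One limma model (version 3.58.1 under R 4.3.3) with a mean per group was fitted to all arrays, with two-sided moderated tests by eBayes (residual df 3, prior df 2.02). P-values were adjusted by Benjamini-Hochberg over all 25057 features, with a threshold of 0.05. MDSC is the mean of both genotypes' means. Where no array of a side was well above background, a lower bound of the fold was taken against the higher of each dim array's lowest signal well above background and the gene's own signal. Such bounds compare group means and take no account of the spread between arrays. The steps were tested on simulated data. P-values measure the spread between isolations of MDSC and between passages of 1 ESC line, and 2 arrays per group limit the precision.

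The 10 genes, 9 lists of partners (adhesion, chemokine, HGF, calcitonin, heparan sulfate, syndecan growth factor, sialomucin and selectin, polysialic acid and Ncam1, engulfment and Notch) and 8 lists of cell type markers (satellite cell and myoblast, fibroblast, endothelial, macrophage, lymphocyte, pericyte, Schwann, pluripotent) were chosen with earlier results of these data known. Cd68 of the macrophage list had no probe. By rule, all 10 genes were named with all their probes, and those that could be named beside them were their direct ligands and partners and, of each list, the 2 largest differences of MDSC from W4 ESC past the threshold and the 2 smallest adjusted p between genotypes. Marker genes given as examples beyond that were chosen after their values were seen.

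Alternatives were quantile normalization, median centring, normexp (offset 50) on median spot and background signals, since no mean signal was in the files, keeping dim probes, requiring a gene well above background on every array, keeping outlier-flagged spots, averaging the probes of a gene, fitting the compared groups alone, slide 2 alone, a robust variance trend, the isolation number as a block, and leaving out each array. Crossed isolation numbers and each other probe on its own were added after seeing the data. The sources used here state no pairing of isolation numbers across genotypes. Deviations of same-numbered MDSC arrays from their group means correlated with r = -0.40 across features, which cannot settle whether isolations were paired. Genes nearest in pattern to Megf10 are not reported here.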

Additional observations from a re-analysis of the deposited data

Results flagged for a closer look

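For Cxcr4 both Mstn-null arrays lay above both ESC arrays, with a log2 difference of 2.14 (limma, adjusted p = 0.0257). Both WT arrays lay below the ESC arrays, with a log2 difference of -0.90 that did not pass (adjusted p = 0.217) and that was -0.05 with normexp background correction. The test of the difference between the genotypes gave 3.03 on the log2 scale (limma, adjusted p = 0.112). Neither WT array and only 1 of the 2 ESC arrays read Cxcr4 well above background.

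Sdc4 stood out by its array order, with both Mstn-null arrays above and both WT arrays below the ESC arrays, and none of its differences passed. The log2 difference from W4 ESC was 0.14 in Mstn-null MDSC (limma, adjusted p = 0.637) and -0.33 in WT MDSC (adjusted p = 0.260), and that between the genotypes was 0.47 (adjusted p = 0.446). Both WT arrays lay on a slide of their own, and slide and WT genotype cannot be told apart.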

How the results depend on the processing

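With 2 arrays per group, 4 of which share a slide that lacks WT, the calls of single receptors are the weakest point. Over all alternatives of the 10 genes in the 4 comparisons, 638 values kept their direction and their side of the threshold, 24 lost the threshold, 12 gained it and 10 turned in sign. Of the counts of called features, 64 stayed within 1.5 times the main count and 4 did not. The calls of Vcam1, Sdc3, Calcr, Met and Megf10 in MDSC against W4 ESC kept their direction and side under every alternative in which they were tested. Calcr and Megf10 were not tested where a gene had to be well above background on every array. Those of Cd34 and Ncam1 did not: Cd34 was 2.84 within slide 2 (adjusted p = 0.0653), and Ncam1 was lost with the replicate block (adjusted p = 0.0541).

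The sign turned only where a difference had not passed. Sdc4 in MDSC minus W4 ESC, -0.10 in the main setting, was 0.044 with median centring, 0.14 within slide 2 and -0.23 to 0.035 with 1 array left out. In Mstn-null minus WT MDSC, Calcr was -0.17 with normexp, Ncam1 was -0.50 by probe A_55_P2050602, and leaving out 1 array gave -0.13 to 0.41 for Vcam1, -0.54 to 0.090 for Sdc3 and -0.20 to 1.60 for Ncam1. In Mstn-null MDSC minus W4 ESC, Cdh15 ranged from -0.24 to 0.57. The cause was not tested.

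Features called between the genotypes numbered 0 in the main setting and 25 with quantile normalization (11 higher, 14 lower), with none of the 10 genes among them. In Mstn-null MDSC against W4 ESC, 13574 features were called in the main setting and 7779 to 12954 with 1 array left out, where a lone array is taken to vary like the other groups. With the isolation number as a replicate block, 0 features were called between the genotypes and 12399 in MDSC against W4 ESC. In that block fit Ncam1 and Met lost their calls in Mstn-null MDSC against W4 ESC (adjusted p = 0.0579 and 0.0536), and Cdh15 gained one in WT MDSC (adjusted p = 0.0242). With crossed numbers, chosen after seeing the data, 177 features were called between the genotypes (142 higher, 35 lower). Median centring moved the median over all features in MDSC minus W4 ESC to 0.12, from -0.03. Slide as a block could not be fitted, since one slide holds only WT arrays.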

Other observations

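Marker lists of vessel wall and nerve sheath cells were also higher in MDSC than in W4 ESC. The mean log2 level of 9 pericyte and smooth muscle markers was -0.19 and -0.19 in Mstn-null MDSC and 0.48 and -0.65 in WT MDSC, against -2.68 and -2.33 in W4 ESC. Pdgfrb, a growth factor receptor of pericytes and other stromal cells, rose in MDSC by a log2 difference of 5.23 (limma, adjusted p = 1.41e-04). The 7 Schwann and glial markers had mean log2 levels of -0.43 and -0.49 in Mstn-null MDSC and 0.03 and -0.65 in WT MDSC, against -2.00 and -1.71 in W4 ESC. Pmp22, a myelin protein also made by fibroblasts, rose by a log2 difference of 3.92 (limma, adjusted p = 0.00152). In both lists the first WT isolation was the highest array, as it was for Cdh15, and the part of these cells in the receptor values was not tested.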
